A study of Mus musculus with 19 samples.

Results

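Aminoacyl tRNA synthetases are the enzymes that join each amino acid to its tRNA, and 36 of their genes were followed among the 21086 genes measured by sequencing of polyadenylated RNA in 19 mouse lymphomas. They were taken by name: 20 cytosolic members, and 16 mitochondrial members whose symbols end in 2. All tumours came from mice with the Em-Myc (Eμ-Myc) transgene, in which an immunoglobulin heavy chain enhancer drives Myc in B cells. The groups were 4 late Bptf+/Δ lymphomas (HET_late, onset at 30 to 66 weeks), 4 early Bptf+/Δ lymphomas (HET_early, 8 to 13 weeks), 5 late Bptf+/+ lymphomas (WT_late, 28 to 76 weeks) and 6 early Bptf+/+ lymphomas (WT_early, 9 to 17 weeks). Bptf+/Δ carries a deleted allele of Bptf, which encodes a subunit of the nucleosome remodelling factor NURF. Each library was a whole tumour, so fewer cells of a type and less RNA per cell cannot be told apart. Reads of Myc did not separate the transgene from the mouse gene.

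Cytosolic synthetases serve the translation of nuclear messages. The mitochondrial enzymes are also encoded in the nucleus, are imported, and charge the tRNAs of the mitochondrial genome. Gars and Kars encode both forms of their enzymes, and Eprs encodes a single protein that charges glutamic acid and proline tRNAs. Many genes of protein synthesis are known MYC targets, and several cytosolic synthetase genes are also known targets of ATF4, the transcription factor of the amino acid starvation response.

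Bptf was at 408 to 1573 normalised reads in the 8 Bptf+/Δ tumours (median 1354), against 1665 to 2586 in the 11 Bptf+/+ tumours (median 2098). The groups did not overlap, and the difference on the log2 scale was -0.92, with an exact two-sided permutation p of 1.32e-05, the smallest that this design can give. Normalised reads are read counts divided by the size factor of the library, from 8297856 to 12497732 reads per library. Myc itself was at 1232 to 16555 normalised reads (median 6821). The library HET_early_2 stood apart from the others. Its 9 B cell markers summed to 783 normalised reads, against 8535 to 38123 in the other 18 tumours, while its 6 cartilage and muscle markers summed to 925258, against at most 10159 in the others. It also had the lowest Myc, so the main counts of calls against Myc, and slopes that moved much, are given with and without it. The most abundant transcript was Col2a1 in HET_early_2, Bpifa2 in WT_early_6 and Igha in HET_late_4, and Eef1a1 elsewhere.

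All 36 members passed the filter on low values (at least 1 normalised read in at least 4 libraries). Per kilobase of the longest annotated transcript, the cytosolic members averaged from 171 normalised reads for Cars to 1425 for Vars, with a median of 572. The mitochondrial members averaged from 32.8 for Wars2 to 2483 for Lars2, with a median of 111. In 12 of the 13 amino acids with a member of each class, the level per kilobase was higher for the cytosolic gene, by a median ratio of 2.77. The ratio ran up to 18.8 for Nars over Nars2, and leucine was the exception, at 0.162 for Lars over Lars2. Whether the Lars2 reads came from its messenger RNA was not tested, as described below. Across the 19 tumours, the standard deviation on the log2 scale had a median of 0.31 in the cytosolic class, from 0.24 for Mars to 0.59 for Vars. In the mitochondrial class its median was 0.45, from 0.29 for Ears2 to 0.81 for Mars2 and 1.79 for Lars2. HET_early_2 had the lowest level of 12 of the 20 cytosolic and 11 of the 16 mitochondrial members. The share of all genes that were lowest there is not given here, so these counts cannot be set against it. The median correlation between pairs of cytosolic members was 0.48 over the 19 tumours and 0.37 without HET_early_2. Between pairs of mitochondrial members it was 0.44 and 0.23, or 0.48 and 0.27 when Lars2 was left out. All of these values share the scaling of each library.

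**Figure D1:**
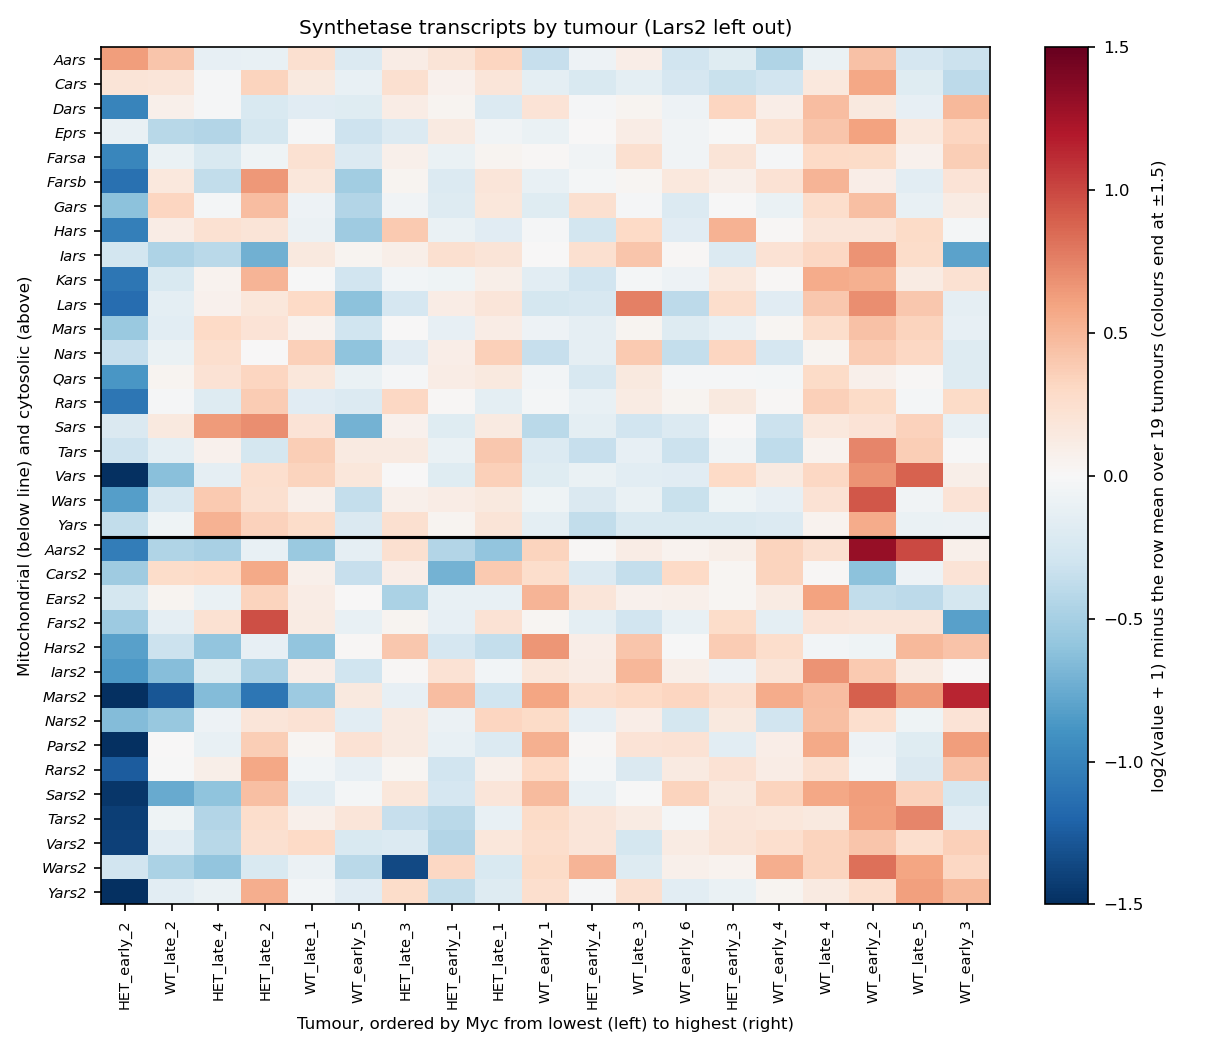
Level of 35 synthetase transcripts (rows, Lars2 left out) in the 19 tumours (columns, ordered by Myc), as log2(normalised reads + 1) minus the row mean, with red above and blue below it. HET_early_2 at the left edge is low for most rows, Mars2 runs from low to high with Myc, and WT_early_2 is high for most cytosolic rows.

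Promoter sequence was available in RefSeq for 27 of the 36 members (GRCm38.p6, 250 bases before to 50 after the start). The 6 shown are the 5 that hold TGATGNAAN, the element through which ATF4 acts with C/EBP proteins, and that of Mars2, the member with the steepest rise with Myc. They were chosen after the values were seen. Capitals mark matches, on either strand, to TGATGNAAN, to CACGTG, the E-box that MYC and MAX bind, and to its variant CACGCG.
Aars, chr8:111033592-111033891, + strand: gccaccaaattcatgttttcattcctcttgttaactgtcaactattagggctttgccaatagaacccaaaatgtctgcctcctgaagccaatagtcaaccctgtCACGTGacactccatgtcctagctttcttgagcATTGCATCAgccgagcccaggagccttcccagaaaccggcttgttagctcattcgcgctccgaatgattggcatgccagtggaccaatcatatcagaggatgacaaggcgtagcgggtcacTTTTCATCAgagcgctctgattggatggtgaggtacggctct
Iars, chr13:49681880-49682179, + strand: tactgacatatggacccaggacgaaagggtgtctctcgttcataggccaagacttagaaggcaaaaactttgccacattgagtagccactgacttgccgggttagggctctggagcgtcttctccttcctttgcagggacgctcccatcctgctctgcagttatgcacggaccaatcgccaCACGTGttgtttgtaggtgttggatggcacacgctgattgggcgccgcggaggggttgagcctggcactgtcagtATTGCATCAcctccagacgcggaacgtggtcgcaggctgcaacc
Tars, chr15:11399609-11399908, - strand: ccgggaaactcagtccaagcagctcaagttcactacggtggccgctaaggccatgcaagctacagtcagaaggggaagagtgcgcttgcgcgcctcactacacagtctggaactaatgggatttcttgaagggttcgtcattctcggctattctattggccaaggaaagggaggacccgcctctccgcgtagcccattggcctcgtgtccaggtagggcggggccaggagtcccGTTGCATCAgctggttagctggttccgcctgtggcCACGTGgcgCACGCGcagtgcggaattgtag
Gars, chr6:55037751-55038050, + strand: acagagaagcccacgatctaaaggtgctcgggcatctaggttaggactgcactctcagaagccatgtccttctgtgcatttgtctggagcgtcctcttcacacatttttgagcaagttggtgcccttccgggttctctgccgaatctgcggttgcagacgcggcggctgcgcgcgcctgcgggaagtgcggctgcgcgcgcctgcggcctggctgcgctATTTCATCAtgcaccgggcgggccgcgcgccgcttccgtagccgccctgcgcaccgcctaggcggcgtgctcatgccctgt
Yars, chr4:129189653-129189952, + strand: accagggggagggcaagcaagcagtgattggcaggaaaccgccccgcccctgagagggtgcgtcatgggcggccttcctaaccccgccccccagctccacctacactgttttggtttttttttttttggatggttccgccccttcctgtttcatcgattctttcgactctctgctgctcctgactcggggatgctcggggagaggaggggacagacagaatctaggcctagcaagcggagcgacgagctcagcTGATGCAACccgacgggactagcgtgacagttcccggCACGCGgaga
Mars2, chr1:55236927-55237226, + strand: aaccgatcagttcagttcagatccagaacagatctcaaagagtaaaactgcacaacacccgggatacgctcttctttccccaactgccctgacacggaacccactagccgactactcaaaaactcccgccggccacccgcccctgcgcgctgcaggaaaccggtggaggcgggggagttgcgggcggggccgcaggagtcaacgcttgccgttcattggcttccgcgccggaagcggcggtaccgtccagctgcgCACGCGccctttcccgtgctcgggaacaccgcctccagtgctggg

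TGATGNAAN was present in 5 of the 13 cytosolic promoters (Aars, Gars, Iars, Tars and Yars) and in 0 of the 14 mitochondrial ones, against 4.5% of the promoters of 27025 genes. Its narrower form TGATGNAAT was in 3 cytosolic promoters (Aars, Gars and Iars) and 1.08% of all, and ATTGCATCA, 1 reverse complement of that form, was in 2 (Aars and Iars) and 0.22% of all. CACGTG was in 4 cytosolic promoters (Aars, Farsb, Iars and Tars) and 1 mitochondrial promoter (Ears2), against 8.09% of all. Aars, Iars and Tars held both CACGTG and TGATGNAAN. CACGCG was in 5 cytosolic promoters (Eprs, Farsa, Mars, Tars and Yars) and 2 mitochondrial ones (Iars2 and Mars2), against 10.49% of all. CCAAT, the motif of NF-Y, was in 7 cytosolic and 6 mitochondrial promoters, against 41.06% of all, and the cAMP response element TGACGTCA was in 0 of either class, against 2.03% of all. These 7 letter patterns were all that were searched, on both strands, and were chosen after the values were seen. A match says only that the letters are in the window.

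The members were fitted against Myc first. In a limma fit of log2(normalised reads + 1) on log2(Myc + 1), with Benjamini-Hochberg adjustment over 19926 genes and a call at adjusted p under 0.05, 7 of the 20 cytosolic members rose with Myc, and none fell. Of the 16 mitochondrial members, 10 rose and Lars2 fell. Of all genes, 11.8% rose and 15.9% fell. The median slope, in log2 units per doubling of Myc, was 0.18 over the cytosolic members, 0.33 over the mitochondrial members (0.33 also without Lars2) and -0.06 over all genes tested. Without HET_early_2, 2 cytosolic members (Eprs and Vars) and 4 mitochondrial members (Aars2, Iars2, Mars2 and Wars2) rose and none fell, against 5.82% and 5.10% of all genes. The median slopes were then 0.08 for the cytosolic and 0.18 for the mitochondrial members.

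**Figure D2:**
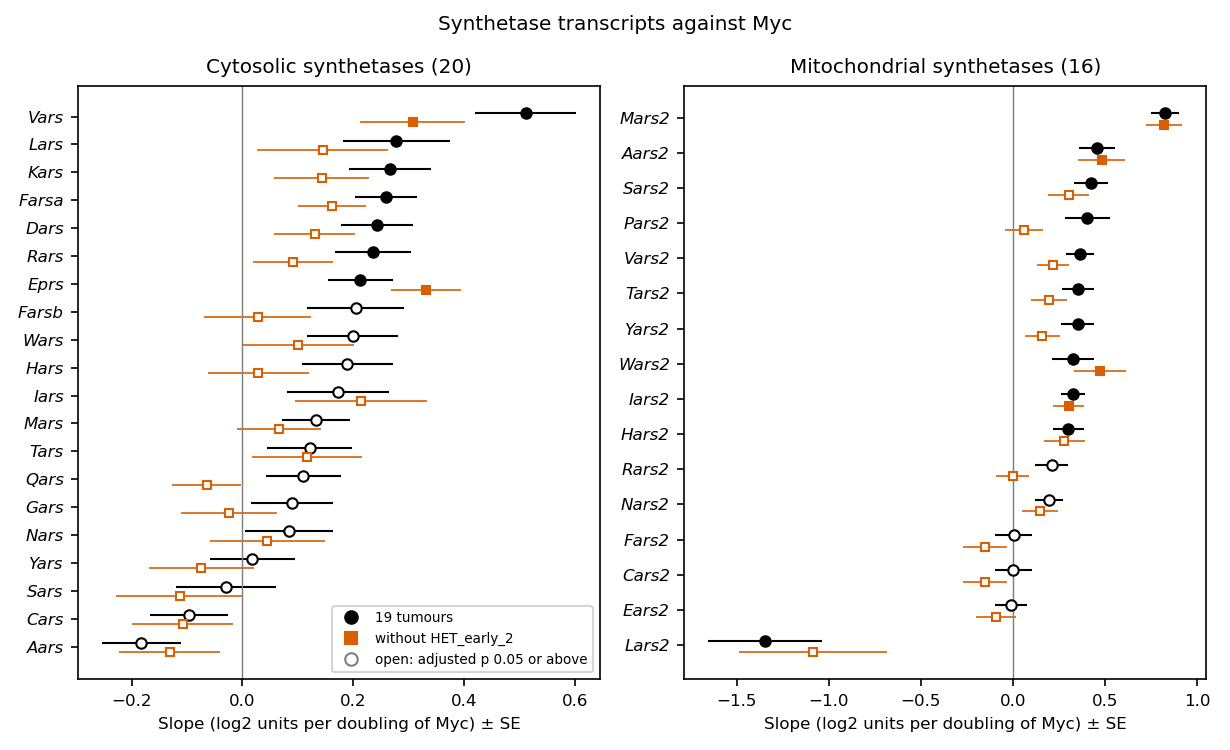
Slope of each synthetase transcript on Myc (log2 units per doubling of Myc, with its standard error), for 20 cytosolic members (left) and 16 mitochondrial members (right), over 19 tumours (black circles) and without HET_early_2 (orange squares), with filled symbols for adjusted p under 0.05. Vars leads the cytosolic panel at 0.51 and Mars2 the mitochondrial panel at 0.83, and most orange squares lie nearer 0 than the black circles.

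Mars2, the mitochondrial methionine enzyme (chr1:55237177-55248470, GRCm38, + strand), had the steepest rise. It was at 480.0, 278, 541 and 376 normalised reads in HET_late, 811, 144, 694 and 706 in HET_early, and 405, 243, 725, 816 and 922 in WT_late. In WT_early it was at 655 at the lowest, 880 at the median and 1308 at the highest. The lowest tumours for Mars2, HET_early_2 and WT_late_2, were also the lowest for Myc, and the highest, WT_early_3, had the most Myc. Its slope was 0.83 ± 0.08 (SE, adjusted p = 7.5e-06, limma), and 0.82 without HET_early_2. Pearson's r with Myc was 0.94 and Spearman's rho 0.90 over 19 tumours (permutation p = 1e-05 for each, two-sided, the smallest that the 100000 resamples can give). The 2 tumours with Myc farthest from its median on the log2 scale were HET_early_2 and WT_late_2, both at the low end. Leaving them out gave an r of 0.87, and r was 0.94 within the 8 Bptf+/Δ tumours and 0.92 within the 11 Bptf+/+ tumours. It was the only member called in all 31 alternative settings. Such correlations were computed for all 36 members, and the adjusted p is that of limma over all genes.

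Iars2, the mitochondrial isoleucine enzyme, was at 1182, 867, 1230 and 1066 normalised reads in HET_late, 1404, 665, 1154 and 1311 in HET_early, and 1300.1, 778, 1716, 1928 and 1320.4 in WT_late. In WT_early its lowest value was 987, its median 1327 and its highest 1589. HET_early_2 and WT_late_2 were again the lowest, and the slope was 0.32 ± 0.07 (adjusted p = 0.00156), or 0.30 without HET_early_2. Exons of Rab3gap2 on the opposite strand cover 22.9% of the exonic bases of Iars2, and as the strand setting of the counting is not given in the sources used here, reads of the pair may not be told apart.

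Aars2, the mitochondrial alanine enzyme, was at 174, 243, 311 and 187 normalised reads in HET_late, 193, 128, 279 and 266 in HET_early, and 179, 193, 284, 312 and 521 in WT_late. In WT_early it was at 239 at the lowest, 304 at the median and 653 at the highest, the last in WT_early_2. The slope was 0.46 ± 0.10 (adjusted p = 0.00212) and 0.48 without HET_early_2. Vars2, the mitochondrial valine enzyme, was at 501, 527, 387 and 333 in HET_late, 329, 168, 510.2 and 503 in HET_early, and 547, 399.5, 371, 561 and 528 in WT_late. In WT_early its lowest value was 379, its median 532 and its highest 594. Its slope was 0.36 ± 0.08 (adjusted p = 0.00226), and 0.22 without HET_early_2, with an adjusted p of 0.109, so that call depended on HET_early_2. The other called mitochondrial members, Sars2, Tars2, Yars2, Hars2, Pars2 and Wars2, had slopes of 0.30 to 0.42, and of these Wars2 alone was called without HET_early_2 (slope 0.47). The slopes of the others were then 0.30 for Sars2, 0.28 for Hars2, 0.19 for Tars2, 0.16 for Yars2 and 0.06 for Pars2. Hars2 shares 195 exonic bases with Hars on the opposite strand.

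Vars, the cytosolic valine enzyme (chr17:35000987-35016322, + strand), was the cytosolic member with the steepest slope. It was at 7108, 6591, 5573 and 5027 normalised reads in HET_late, 4885, 1421, 6792 and 5178 in HET_early, and 7002, 3588, 4958, 6849.8 and 10208 in WT_late. In WT_early it was at 4891 at the lowest, 5970.3 at the median and 8825 at the highest. The slope was 0.51 ± 0.09 (adjusted p = 0.000657) over all tumours and 0.31 (adjusted p = 0.0429) without HET_early_2. Pearson's r was 0.81 and Spearman's rho 0.48 (permutation p = 0.00015 and 0.0381). It was an r of 0.64 without HET_early_2 and 0.73 within the Bptf+/+ tumours. Once the 2 tumours with Myc farthest from its median, both low in Myc, were left out, r was 0.48. Much of the relation thus rested on those tumours.

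Farsa and Dars encode the phenylalanine enzyme's alpha chain and the aspartate enzyme. Farsa was at 996, 922, 1022 and 824 normalised reads in HET_late, 901, 492, 1102 and 929 in HET_early, 1133, 900.0, 1139.8, 1194 and 1012 in WT_late, and 837 to 1249 in WT_early (median 964). Dars was at 1401, 1374, 1745 and 1596 in HET_late, 1666, 815, 2027 and 1599 in HET_early, 1435, 1704, 1666, 2232 and 1482 in WT_late, and 1426 to 2257 in WT_early (median 1760.3). HET_early_2 was the lowest tumour for both, far below the others. Their slopes were 0.26 ± 0.06 and 0.24 ± 0.06 (adjusted p = 0.00228 and 0.0091), and neither was called without HET_early_2, at 0.16 and 0.13.

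Eprs did not follow that pattern. It was at 3141, 2703, 2828 and 2399.9 normalised reads in HET_late, 3581, 3019, 3238 and 3251 in HET_early, 3217, 2429.9, 3504, 4321 and 3627 in WT_late, and 2615 to 4928 in WT_early (median 3462). HET_early_2 lay within the range of the other tumours. The slope was 0.21 ± 0.06 (adjusted p = 0.0113) with all tumours and 0.33 ± 0.06 (adjusted p = 0.00441) without HET_early_2. Spearman's rho was 0.85 (permutation p = 2e-05). The other cytosolic calls, Kars, Rars and Lars, had slopes of 0.24 to 0.28, which were 0.09 to 0.15 without HET_early_2, where none of them was called. Of the 8 cytosolic members that form the mammalian multi-synthetase complex (Dars, Eprs, Iars, Kars, Lars, Mars, Qars and Rars), 5 rose with Myc, with a median slope of 0.22. Of the other 12 cytosolic members 2 rose, with a median of 0.11, and of all genes 11.8% rose. That grouping was chosen after the values were seen. Without HET_early_2 each subset had 1 call, at 5.82% of all genes, with median slopes of 0.14 and 0.03.

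**Figure D3:**
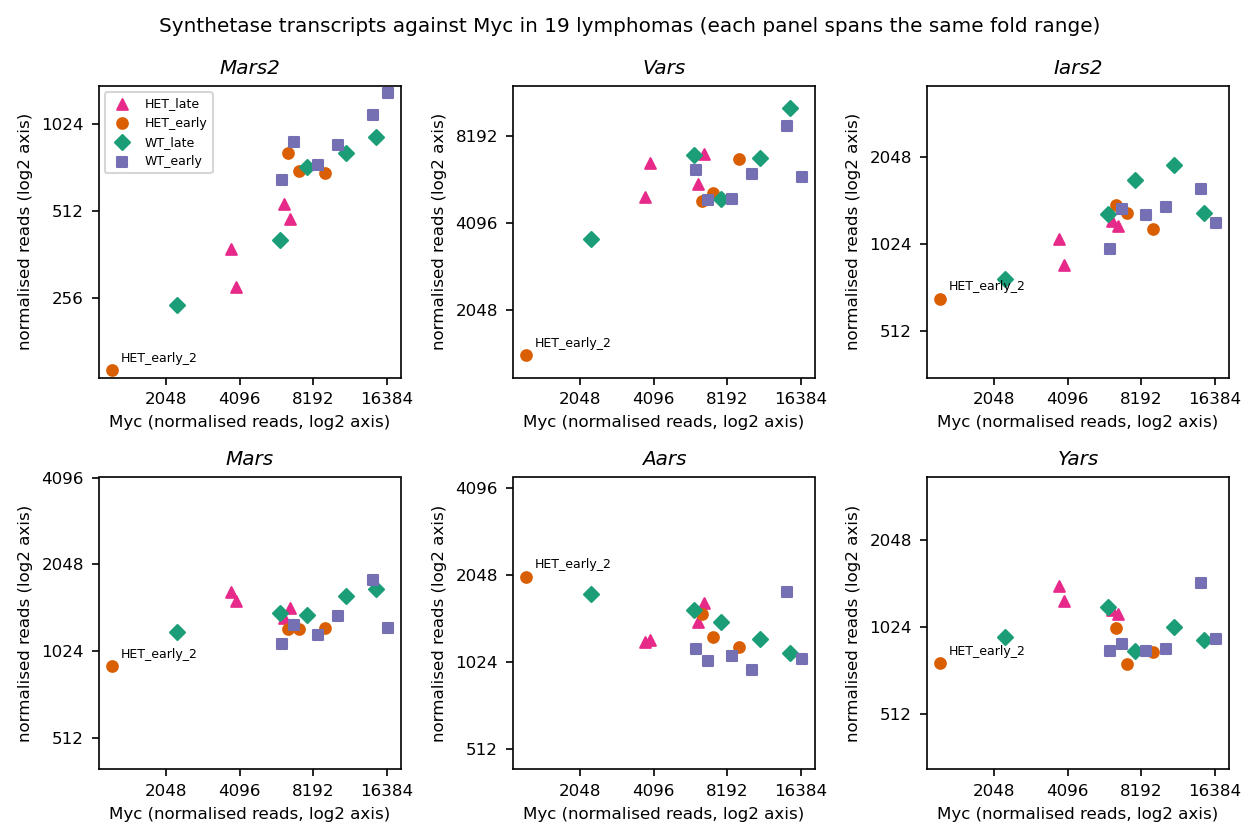
Normalised reads of 6 synthetase transcripts (vertical log2 axes that span the same fold range) against Myc (horizontal log2 axis) in 19 tumours, with symbols by group. Mars2 rises across the whole range of Myc, and Vars and Iars2 rise with HET_early_2 at the low end. Mars rises less (slope 0.13, not called, and 0.07 without HET_early_2), Yars shows no such rise, and Aars is highest in HET_early_2.

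For several members the slope on Myc was near 0. The members of each class with the largest p were Sars and Yars, the cytosolic serine and tyrosine enzymes, and Fars2 and Cars2, the mitochondrial phenylalanine and cysteine enzymes. Their slopes were -0.03, 0.02, 0.0029 and 0.00073 with standard errors of 0.08 to 0.10, and the adjusted p values were 0.838 to 0.997 (limma). Yars was at 1134, 1257, 1172 and 1424 normalised reads in HET_late, 1017, 768, 843 and 765 in HET_early, 1199.6, 947, 846, 1028 and 925 in WT_late, and 848 to 1459 in WT_early (median 876). Cars2 was at 267, 303, 217 and 249.9 in HET_late, 124, 139.6, 207 and 176 in HET_early, 215, 246, 158, 205 and 193 in WT_late, and 132 to 256 in WT_early (median 239). The highest Yars value, in WT_early_2, and the highest Cars2 value, in HET_late_2, came from tumours far apart in Myc. Aars, the cytosolic alanine enzyme, had the lowest slope of the cytosolic members at -0.18 ± 0.07 (adjusted p = 0.060), or -0.13 without HET_early_2, and was called lower in 4 of the 31 alternative settings. It was singled out after its values were seen, and exons of Exosc6 on the same strand cover 14.3% of its exonic bases.

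Among the 13 amino acids with a member of each class, the mitochondrial slope was larger than the cytosolic slope in 10, and in 9 without HET_early_2. Methionine had 0.83 for Mars2 and 0.13 for Mars, and alanine 0.46 for Aars2 and -0.18 for Aars. The order was reversed for leucine, arginine and valine, and for leucine the source of the Lars2 reads was not tested.

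Markers of other cell types moved with Myc as well. A score for cells other than the tumour's, averaging the z scores of T cell, macrophage, stromal and endothelial markers, fell as Myc rose (r = -0.76 and rho = -0.65 over 19 tumours, permutation p = 0.0003 and 0.00375, r = -0.58 without HET_early_2, and r = -0.60 without the 2 tumours farthest from the median). The macrophage markers summed to 5511 to 41781 normalised reads in the 18 tumours other than HET_early_2 and to 33903 in HET_early_2. Of these 8 genes 5 fell with Myc over 19 tumours and 2 without HET_early_2, against 15.9% and 5.10% of all genes. Of 8 T cell markers 2 fell over 19 tumours and 5 without HET_early_2. Of 7 stromal markers 3 fell over 19 tumours and 1 without HET_early_2, and of 6 endothelial markers 1 and 0. The median slopes of these 2 lists without HET_early_2 were -0.006 and -0.07. Of the 9 B cell markers 4 rose over 19 tumours and 0 without HET_early_2, against 11.8% and 5.82% of all genes. Not every marker of the score fell. Cd2 (T cell list, slope 1.02) and Adgre1 (macrophage list, 0.11) had positive slopes over 19 tumours, and neither was called. Without HET_early_2 further markers of the score had positive slopes, such as Col1a1 (0.83), Col3a1 (0.75) and Kdr (0.22), also without a call. Whether tumour cells also expressed markers of the score was not tested. With the score as a covariate, Mars2 was the only member called (slope 0.73, adjusted p = 0.011, limma), in a fit that called 0.166% of all genes. Some slopes stayed near or above those without the score, as for Vars (0.49 against 0.51), Eprs (0.30 against 0.21) and Wars2 (0.58 against 0.33). Others came near 0, as for Dars (0.06 against 0.24) and Pars2 (0.06 against 0.40). Their standard errors were larger with the score, at 0.14 against 0.09 for Vars, so a missing call need not mean a smaller slope. Within the 11 Bptf+/+ tumours Mars2 was again the only call, at 1.31% of all genes in either direction. Within the 8 Bptf+/Δ tumours Dars, Farsa, Vars and Mars2 rose and Lars2 fell, at 11.6% of all genes. These 8 include HET_early_2, which had the lowest value of each member that rose and the highest of Lars2. No fit within this genotype left it out. Without the 2 tumours of most extreme Myc, both at its low end, Eprs, Aars2 and Mars2 rose, at 4.41% of all genes. Without the 3 libraries led by another transcript than Eef1a1, Eprs and Mars2 rose, at 2.36% of all genes. Over all 19 tumours, edgeR called 7 cytosolic and 9 mitochondrial members higher, at 10.1% of all genes, and DESeq2 7 and 11, at 12.2%. With the 4 group means as covariates 8 and 7 rose, at 8.63% of all genes. The edgeR, DESeq2 and covariate fits were not repeated without HET_early_2. The parts of Myc and of the makeup of the tumours in these slopes were not told apart further.

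**Figure D4:**
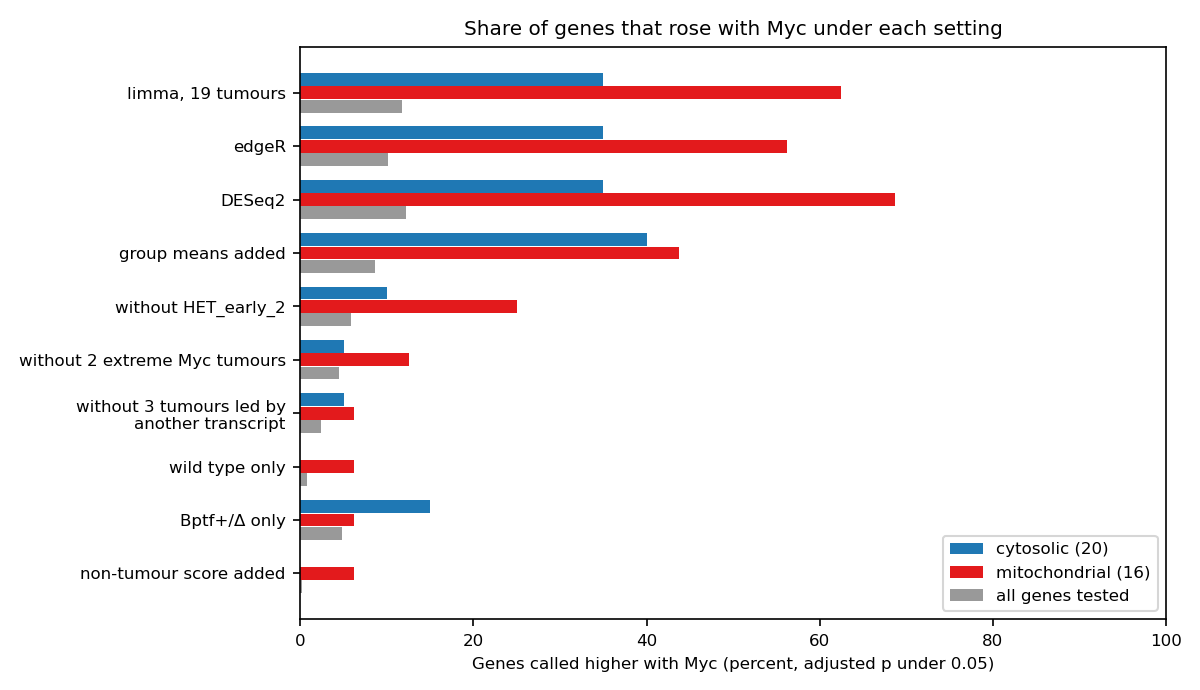
Percent of genes called higher with Myc (horizontal axis) under 10 settings (rows), for the 20 cytosolic members (blue), the 16 mitochondrial members (red) and all genes tested (grey). The shares of both classes lie above that of all genes over 19 tumours, where 7 and 10 members were called. With the non-tumour score or within the Bptf+/+ tumours, 0 cytosolic and 1 mitochondrial member were called.

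Lars2, the mitochondrial leucine enzyme (chr9:123366927-123462666, + strand), varied more than any other member. It was at 1165, 3696, 1658 and 13081 normalised reads in HET_late, 20779, 73652, 1393 and 1323 in HET_early, 1379, 25295, 3340.0, 1525 and 2291 in WT_late, and 1419 to 15307 in WT_early (median 3968). High and low tumours were found in all 4 groups, and the highest value was 63.2 times the lowest, against 9.11 times for Mars2. Its slope on Myc was -1.35 ± 0.31 (adjusted p = 0.0036), and -1.09 with an adjusted p of 0.0845 without HET_early_2. Of 12527 genes with a mean above 20, the 3 whose log2 levels were most like those of Lars2 were Mir6236 (r = 0.99), Gm23935 (r = 0.96) and Rn18s-rs5 (r = 0.89, a pseudogene related to 18S ribosomal RNA). These are descriptions, since the 3 were picked as the top of that ranking. The other 35 members had r of -0.76 to 0.50 with Rn18s-rs5. No stretch of 36, 22, 18 or 14 bases of the Lars2 transcripts was shared, on either strand, with Mir6236, Gm23935 or Gm42418, the name under which Rn18s-rs5 stands in the transcript set. Against the mitochondrial ribosomal RNAs, 1 stretch of 14 bases was shared with mt-Rnr1, and none with mt-Rnr2. Mir6236 (chr9:110281287-110281409) and Gm23935 (chr16:11144125-11144181) are short, so little sequence was compared for them. At 36 bases, 28 other genes shared a stretch with the Lars2 transcripts. The search therefore does not tell where the reads counted for Lars2 came from. Whether the reads counted for Lars2 came from its messenger RNA was not tested, so the mitochondrial counts can be read as 10 of 15 members without it.

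**Figure D5:**
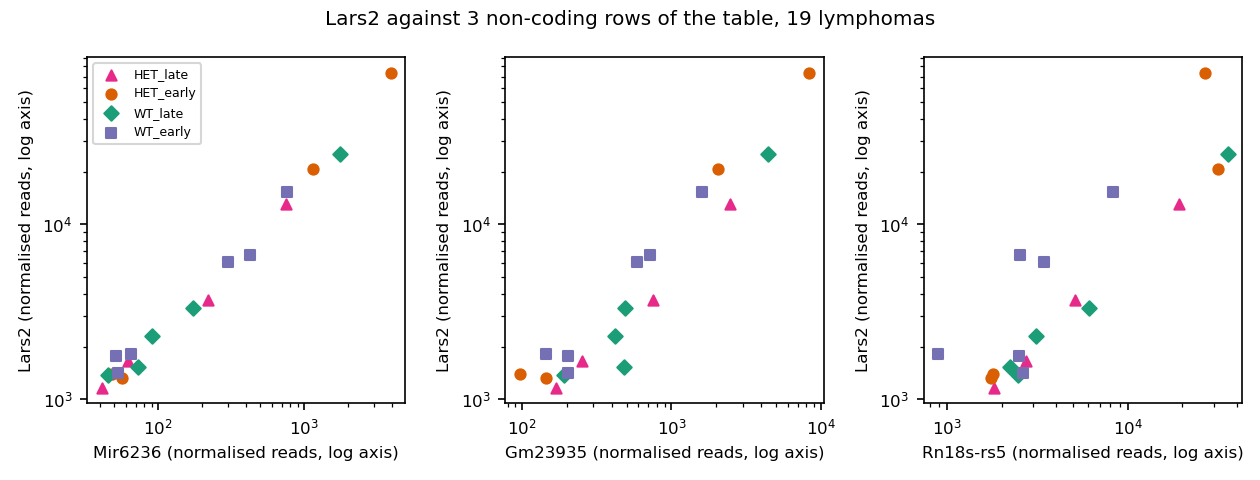
Lars2 (vertical log axis) against Mir6236, Gm23935 and Rn18s-rs5 (horizontal log axes), in normalised reads, in 19 tumours with symbols by group. Lars2 follows Mir6236 most closely, and HET_early_2 is the highest point for Lars2 at 73652.

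Between Bptf+/Δ and Bptf+/+ tumours averaged over onset, limma called 0 of the 36 members, at 0.0% of all genes. An unadjusted p under 0.05 was found for 2 members and 1988 of 19927 genes. EdgeR called 0 members, at 0.0% of all genes, and DESeq2 called 0, at 0.0903% of all genes. The difference was negative for 29 of the 36 members, with a median of -0.10 over the cytosolic and -0.29 over the mitochondrial members, against 0.06 over all genes. Without HET_early_2 it was negative for 23, with medians of -0.01 and -0.15, and with Myc as a covariate for 17. Tars2, the mitochondrial threonine enzyme, was at 774, 1007, 662 and 617 normalised reads in HET_late, 631, 314, 948 and 949 in HET_early, 886, 804, 915, 924 and 1392 in WT_late, and 753 to 1288 in WT_early (median 948). The groups overlapped, and the difference was -0.45 ± 0.19 (adjusted p = 0.493), or -0.28 without HET_early_2. Mars2 differed by -0.67 ± 0.31 (adjusted p = 0.493), by -0.37 without HET_early_2 and by -0.07 with Myc as a covariate. Farsa (-0.25, or -0.12 without HET_early_2) and Sars (0.20) had the smallest p of the cytosolic members, with adjusted p of 0.510 and 0.548.

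Between late and early tumours averaged over genotype, limma also called 0 of the 36 members, at 0.437% of all genes. An unadjusted p under 0.05 was found for 5 members and 3785 of 19927 genes. EdgeR called 0 members, at 2.7% of all genes, and DESeq2 called Sars (adjusted p = 0.0148), at 9.31% of all genes. The difference was positive for 18 of the 20 cytosolic members (median 0.23) and 11 of the 16 mitochondrial ones (median 0.11), against a median of -0.08 over all genes. Without HET_early_2 it was positive for 17 cytosolic members (median 0.16) and 5 mitochondrial ones (median -0.06), so the direction of the mitochondrial median turned with that library. Sars was at 1697, 2508, 1613 and 2411 normalised reads in HET_late and 1364, 1329, 1558 and 1396 in HET_early. It was at 1789.6, 1707, 1270.0, 1722 and 1959 in WT_late and 943 to 1785 in WT_early (median 1288). The late and early Bptf+/Δ tumours did not overlap, while the Bptf+/+ tumours did, and the difference averaged over genotype was 0.44 ± 0.13 (adjusted p = 0.105, limma).

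Qars, the glutamine enzyme, was at 2053, 2312, 1819.5 and 2144 normalised reads in HET_late, 1987, 1005, 1819 and 1560.0 in HET_early, 2074, 1899, 2039, 2262 and 1872 in WT_late, and 1615 to 1954 in WT_early (median 1806). The difference of 0.30 ± 0.12 (adjusted p = 0.183) was 0.20 without HET_early_2. Wars2, the mitochondrial tryptophan enzyme, went the other way, at 117, 117, 52.7 and 90.3 in HET_late, 169.5, 112, 142 and 195 in HET_early, 128, 97.8, 119, 173 and 207 in WT_late, and 103 to 242 in WT_early (median 168). Its difference was -0.49 ± 0.21 (adjusted p = 0.228). Fars2 was at 270.1, 454, 238 and 271 in HET_late, 213, 158, 281 and 209 in HET_early, 253, 211, 190.4, 267 and 264 in WT_late, and 132 to 263 in WT_early (median 214). It differed by 0.34 ± 0.17 (adjusted p = 0.280).

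Within 1 onset class or 1 genotype limma also called no member, at 0.0% of all genes in each of these comparisons and in the genotype by onset interaction. The members with an unadjusted p under 0.05 numbered 4 for genotype in early tumours (2293 of all 19927 genes), 0 for genotype in late tumours (1222 genes), 7 for onset in Bptf+/Δ tumours (3887 genes), 2 for onset in Bptf+/+ tumours (966 genes) and 3 for the interaction (1382 genes). EdgeR called none in any of them, at 0.0% of all genes. DESeq2 called Yars (adjusted p = 0.0344) and Cars2 (adjusted p = 0.0468) for onset in Bptf+/Δ tumours, at 8.69% of all genes. It called no member for genotype in early tumours (2.01% of all genes), genotype in late tumours (0.176%), onset in Bptf+/+ tumours (0.607%) or the interaction (0.482%). In the authors' deposited table, 0 members passed an adjusted p of 0.05 in any of the 5 comparisons. Of all genes with an adjusted p in the authors' deposited table, 0.338% passed for genotype, 2.09% for genotype in early tumours, 0.109% for genotype in late tumours, 4.32% for onset in Bptf+/Δ tumours and 1.94% for onset in Bptf+/+ tumours. The smallest adjusted p of a member there was 0.149, for Cars2 in late over early Bptf+/Δ tumours (log2 fold change 0.83).

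Other genes of tRNA biology are given for comparison. The counts of these lists can be set against all genes, of which 11.8% rose and 15.9% fell with Myc over all tumours. Without HET_early_2 these shares of all genes were 5.82% and 5.1%. Of 40 tRNA processing and modification genes tested, 25 rose with Myc and Tsen34, a subunit of the tRNA splicing endonuclease, fell (median slope 0.30), among them Pus7, a pseudouridine synthase (0.63), Adat1, a tRNA deaminase (0.61), and Pop1, a subunit of RNase P (0.65). Of 21 genes of RNA polymerase III and its factors, which transcribe tRNA genes, 13 rose and none fell (median 0.26), led by Polr3b (0.60), Polr3e (0.38) and Polr3a (0.42). Without HET_early_2 these counts were 10 and 8, with median slopes of 0.19 and 0.17, and Tsen34 was not called. Of 14 partner genes of the synthetases, 5 rose and none fell (median 0.20), among them Sepsecs, which makes selenocysteine on its tRNA (0.37), Gatc, of the mitochondrial glutamine amidotransferase (0.27), and Dtd1, which removes D-amino acids from tRNA (0.45), and without HET_early_2 Sepsecs was the only call and the median was 0.05.

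Of 22 cytosolic translation factors, 11 rose and none fell (median 0.20), led by the termination factor Gspt1 (0.31), the recycling factor Abce1 (0.33) and the cap-binding factor Eif4e (0.32). Of 10 mitochondrial translation factors, 3 rose and none fell (median 0.15), namely Guf1 (0.43), Gfm1 (0.39) and Mtif2 (0.19). Without HET_early_2 the counts were 4 and 2, with median slopes of 0.09 and 0.05, and Mtif2 was not called. Of 30 genes of the ATF4 programme other than synthetases, 2 rose and 10 fell (median -0.35), against 11.8% and 15.9% of all genes. Among those called were the transcription factor Atf5 (-0.93), the serine hydroxymethyltransferase Shmt2 (0.58) and the stress protein Sesn2 (-0.82). Without HET_early_2, 1 rose and 2 fell (median -0.23), against 5.82% and 5.1% of all genes, and the slope of Shmt2 was 0.30.

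The members were also set against Atf4, Asns, Ddit3, Trib3 and Chac1 in turn, in 20 limma fits chosen after the values were seen, with and without HET_early_2 and with and without Myc as a covariate. No member was called in 17 of the 20 fits, which include all those for Atf4, Asns and Trib3, and these 17 called at most 0.0753% of all genes. Over 19 tumours, 3 cytosolic and 7 mitochondrial members fell and 1, Lars2, rose with Ddit3, at 22.8% of all genes. With Chac1, 6 mitochondrial members fell, at 10.9% of all genes. Neither had a call with Myc as a covariate. Without HET_early_2, Ddit3 had 1 call, Sars, which rose, at 5.9% of all genes.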

How the data were processed

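Polyadenylated RNA of 19 lymphomas was sequenced on a Genome Analyzer IIx, per the labels' protocols. The submitters' processing notes name Cufflinks 2.2.1, TopHat2 2.1.1, Cuffdiff, Cuffnorm and FastQC 0.11.5, and the builds mm10 and GRCm38. The maker of the table and the use of strand in counting are not given in the sources used here. Judged by its values, the deposited signal is a read count divided by a size factor, since 100% of values were whole reads within 0.01 reads, and the counts were recovered. The authors also deposited log2 fold changes and adjusted p-values for 5 comparisons.

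Values were fitted as log2(value + 1) with limma 3.58.1 (R 4.3.3) over 19927 genes (1 or more in 4 or more libraries). Such fold changes understate changes of weak genes. Slopes were fitted on log2(Myc + 1), and group differences in 1 model of 4 group means. EdgeR 4.0.16 and DESeq2 1.42.0 on recovered counts served as alternatives, besides other scalings, filters, pseudocounts, covariates and left-out libraries. The tests were checked on simulated data. The simulated slopes on Myc were steeper than those of all members but Lars2. That check therefore does not cover weaker slopes, nor a library that stands apart. Permutation tests used SciPy 1.17.1. The lowest chi-square per gene over 171 pairs of libraries was 18.8, so no library repeated another. Replicate numbers only follow accession order. Whether tumours came from separate mice is not stated beyond the labels, so p-values measure the spread between these samples. PCR reads are not independent molecules, and depth of 8297856 to 12497732 reads gives counting error only.

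The members and gene lists were chosen with earlier results of these data known. Values in every library are given for the 4 members of each class with the smallest p against Myc, the 2 with the largest, and the 2 with the smallest p for genotype and for onset. Of each other list up to 3 genes with the smallest p are named. Adat3 of the tRNA list was not found under that name. Sequences and coordinates are from RefSeq GRCm38.p6 and the annotation of the same build.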

Additional observations from a re-analysis of the deposited data

Results flagged for a closer look

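Within the 4 groups, 144 sets of values (36 members in 4 groups) were checked for a tumour far from the rest of its group by Dixon's criterion, and 11 stood out. Chance flags about 1 in 20 groups, so such flags are of limited weight. WT_early_2 was the high tumour in 5 of them. It had 1788.5 normalised reads of Aars, against 964 to 1139 in the other WT_early tumours, 813.6 of Cars, against 415 to 505, and 2480.0 of Lars, against 997 to 1399. It had 1459.0 of Yars, against 848 to 929, and 653.1 of Aars2, against 239 to 332.

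HET_early_2 was the low tumour in 3, with 907.9 of Mars, against 1219.9 to 1235 in the other HET_early tumours, 143.6 of Mars2, against 694 to 811, and 31.9 of Pars2, against 132 to 149.9. WT_early_3 was low for Fars2, at 131.7 against 209 to 263 in the other WT_early tumours. HET_late_2 was high for Rars2, at 515.6 against 353 to 367 in the other HET_late tumours. WT_late_5 was high for Tars2, at 1392.2 against 804 to 924 in the other WT_late tumours.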

How the results depend on the processing

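No paired analysis was possible because the replicate numbers only follow accession order. Members called higher with Myc, 7 cytosolic and 10 mitochondrial over 19 tumours, numbered 3 and 1 in Bptf+/Δ tumours, 0 and 1 in Bptf+/+ tumours, 0 and 1 with the non-tumour score, 1 and 2 without the 2 tumours of most extreme Myc, and 1 and 1 without the 3 libraries led by another transcript than Eef1a1. Leaving out 1 library gave 2 to 9 cytosolic and 4 to 12 mitochondrial calls, the lowest for HET_early_2. Of all genes, 11.8% rose and 15.9% fell over 19 tumours. The share that rose was 5.82% without HET_early_2, 4.41% without the 2 tumours and 2.36% without the 3 libraries. In either direction, 11.6% of all genes were called in Bptf+/Δ tumours, 1.31% in Bptf+/+ tumours and 0.166% with the score. The count in Bptf+/Δ tumours includes HET_early_2. Members called lower, 1 in the analysis above, numbered 0 to 2 when 1 library was left out, 2 with quantile normalisation, and 0 with the non-tumour score, in Bptf+/+ tumours and without the 2 or the 3 libraries. DESeq2 called 1 member for onset averaged over genotype and 2 for onset in Bptf+/Δ tumours, where limma called 0. With quantile normalisation 3477 of all genes rose with Myc and 2055 fell, against 2343 and 3164 with the deposited scaling.

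The sign of the slope changed under some alternative for 9 of the 36 members, and for 0 of the 18 called. Farsb reached -0.025, Rars2 -0.026, Qars -0.10, Gars -0.030 and Ears2 0.16. The other 4 are given in full. With DESeq2 the slope was -0.014 for Cars2 and -0.015 for Fars2. With group means as covariates it was -0.014 for Cars2 and 0.064 for Sars. With the non-tumour score it was -0.090 for Cars2 and 0.029 for Sars. In Bptf+/+ tumours it was -0.099 for Cars2, -0.029 for Fars2 and 0.062 for Sars. Without the 2 tumours of most extreme Myc it was -0.16 for Cars2, -0.28 for Fars2 and -0.14 for Yars, and without the 3 libraries it was -0.14 for Cars2 and Fars2 and -0.014 for Yars. Leaving out 1 library gave slopes of -0.15 to 0.052 for Cars2, -0.15 to 0.086 for Fars2, -0.11 to 0.0075 for Sars and -0.074 to 0.050 for Yars. The cause was not tested. Slopes under about 0.2 lie near the limit of 19 tumours, whose standard errors were 0.06 to 0.12 for members other than Lars2.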

Other observations

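WT_early_2 was looked at further because of these values. Of the 6 WT_early tumours it was the highest for 17 of the 20 cytosolic members and 7 of the 16 mitochondrial members, against 22.1% of all genes. It was also the highest for 17 of 30 genes of the ATF4 programme other than synthetases. Trib3, an ATF4 target, was at 86.2 normalised reads, against 3.48 to 26.6 in the other WT_early tumours. Phgdh, the first enzyme of serine synthesis, was at 6653, against 3236 to 4074. Slc7a5, a carrier of large neutral amino acids, was at 3930.4, against 1609 to 2748. Others of the list did not follow: Asns was at 627, within the 113 to 661 of the other tumours, and Ddit4 at 264, below their 266 to 735. These genes were picked after their values were seen, and the tumour is a single library.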
